A study of Canis lupus familiaris with 16 samples.

Results

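Sorafenib was compared with its vehicle in 4 canine hepatocellular carcinoma cell lines, using 8 of the 16 RNA sequencing libraries of the series. The lines KU-cHCC-001, 002, 004 and 005 are primary cultured lines of this tumour of dogs. The treated group received sorafenib at 30 µM for 24 h and the control group received dimethyl sulfoxide (DMSO) for 24 h, with 1 library per line in each group, so that 4 pairs were formed, one in each line. Libraries of the other drug and of its saline vehicle were left out. All 8 cultures were kept in serum-containing medium that also held the antioxidant and cysteine source N-acetyl-L-cysteine. The replicates were therefore lines, each line is a single culture as far as the labels say, and a difference seen in 1 line alone had no replicate.

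Sorafenib is an oral kinase inhibitor used against liver cancer. It binds RAF kinases, which pass signals from RAS to MEK and ERK, and a group of receptor tyrosine kinases that includes the VEGF and PDGF receptors, KIT and RET. At micromolar doses it is also known to disturb mitochondria and to induce the stress pathways that slow translation. Stress genes, sterol genes, the cell cycle and mitochondrial transcripts are set aside here, and the rest of the transcriptome is described: receptors and their ligands, transcription factors, RNA-binding and chromatin proteins, the cytoskeleton, membrane traffic, transporters, metabolism and surface molecules.

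The libraries held 17055803 to 19917958 counts with DMSO and 19667162 to 20312123 with sorafenib, and 13471 to 14658 genes per library reached 10 counts. Levels are given as CPM, counts brought to a common library size with TMM scaling factors, listed in the order KU-cHCC-001, 002, 004 and 005. The 13 mitochondrial transcripts took 4.12% to 5.84% of counts with DMSO and 0.981% to 1.97% with sorafenib, a shift that moved with the treatment in every line. With these transcripts left out, 2639 genes were called higher and 2393 lower, close to the counts given below. Changes are log2 fold changes, sorafenib against DMSO, with the line as a block, and their standard error (SE). A gene was called higher or lower at an adjusted p under 0.05 (edgeR quasi-likelihood test, Benjamini-Hochberg over all genes tested).

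The label of hepatocellular carcinoma was set against cell type markers. Albumin (ALB) reached at most 0.144 CPM in any library, SERPINA1 and FGG were listed at 0 in all 8, and 2 of 12 hepatocyte markers, HNF4A and APOB, were expressed highly enough to test. The summed hepatocyte markers lay at 8.49 to 88.8 CPM with DMSO and 3.56 to 55.2 CPM with sorafenib. All 10 bile duct and progenitor markers were testable, and their sum was 1249 CPM in KU-cHCC-001 and 9213 to 13491 CPM in the other lines with DMSO, against 537 CPM and 7445 to 9356 CPM with sorafenib. The mesenchymal sum was 13423 CPM in KU-cHCC-001 and 2036 to 2464 CPM elsewhere with DMSO, and 9687 CPM and 2364 to 3576 CPM with sorafenib, carried by VIM and FN1 while COL3A1, DCN and LUM were listed at 0. Endothelial markers summed to 2.85 to 9.99 CPM and leukocyte markers to 13.6 to 84.2 CPM over the 8 libraries, the latter almost wholly CD14, with CD3E and AIF1 at 0. Markers of bile duct and progenitor cells were thus expressed in these lines and most hepatocyte markers were not, so the lines are called by their names below. The part that these marker levels play in the results was not tested.

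Sorafenib changed a large part of the transcriptome. Of 13821 genes tested, 5053 were called, which is 36.6% of them: 2535 rose (18.3%) and 2518 fell (18.2%). The change was at least 2-fold for 719 of the genes that rose (5.2% of those tested) and for 995 of those that fell (7.2%), and at least 8-fold for 19 and 35. Of the 5053 called genes, 4826 moved the same way in 4 of 4 lines, which holds for 52.4% of all genes tested. In 12.3% of the genes tested the 4 treated libraries did not overlap the 4 vehicle libraries. The sterol, stress, cell cycle and mitochondrial lists that were set aside had 356 tested genes, of which 237 were called. These were 4.69% of all called genes, a share that depends on the length of the lists. Outside them 4816 of 13465 tested genes were called, a smaller share than on the lists. When libraries were scaled to total counts without TMM, the median of all genes moved from -0.02 to 0.08 and the split became 3194 higher and 1947 lower, 62.1% higher in place of 50.2%. Group counts below are read against the 18.3% and 18.2% of all genes.

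**Figure D1:**
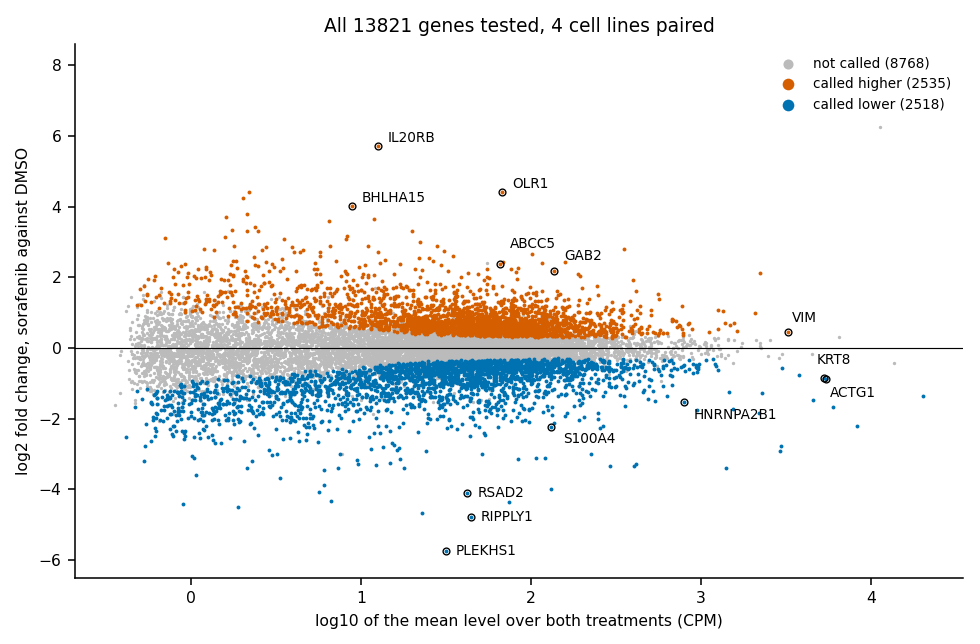
Each point is 1 of the 13821 genes tested: its log2 fold change, sorafenib against DMSO (vertical axis), is plotted over the log10 of its mean CPM (horizontal axis), with genes called higher in orange, called lower in blue and the rest in grey. Called genes lie at all levels in both directions; IL20RB had the largest increase and PLEKHS1 the largest decrease among the genes labelled.

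KU-cHCC-001 stood apart in the size and pattern of its response. Over 10716 genes with a mean of at least 5 CPM, 459 were at least 2-fold higher and 458 at least 2-fold lower in KU-cHCC-001, against 661 to 755 and 718 to 946 in the other lines. These counts are on CPM + 0.5. On CPM + 5 they were 243 and 292 in KU-cHCC-001, against 385 to 484 and 450 to 614. The median difference over the genes called higher was 0.53 in KU-cHCC-001 and 0.70 to 0.78 in the others. Those genes were chosen by the fit to the same 4 lines, so this median is not separate evidence. Across 9658 genes the differences of KU-cHCC-001 correlated with those of the other lines at 0.550 to 0.562, while KU-cHCC-002, 004 and 005 correlated with each other at 0.742 to 0.824. These are correlations across genes, which are not independent replicates. Leaving out KU-cHCC-001 raised the calls to 2978 higher and 2856 lower. Leaving out KU-cHCC-002 lowered them to 1269 and 1225, KU-cHCC-004 to 1585 and 1482, and KU-cHCC-005 to 1557 and 1427. For each group of genes the range of its count with 1 line left out is therefore given in parentheses after the count, with KU-cHCC-001 left out giving the upper end of every range except those of the falling Krebs cycle genes and the rising tubulin genes; the share of all genes called then ran from 9.1% to 21.7% for rises and from 8.8% to 20.8% for falls.

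Outside the set-aside lists, the largest increases fell on genes with low levels in the vehicle. The cytokine receptor subunit IL20RB stood at 0.108, 0.348, 0.447 and 0.709 CPM with DMSO and 2.99, 9.59, 24.7 and 61.3 CPM with sorafenib. Every treated library lay above every vehicle library, and the log2 fold change was 5.71 ± 0.32, adjusted p = 0.000111. BHLHA15, a transcription factor of secretory cells also known as MIST1, stood at 0.86, 1.1, 0.559 and 1.47 CPM with DMSO and 9.02, 14.5, 16.1 and 27.6 CPM with sorafenib, again with no overlap (4.02 ± 0.28, adjusted p = 0.000187). The receptor tyrosine phosphatase PTPRU gave 1.4, 0.232, 1.68 and 0.545 CPM with DMSO and 7.96, 14.5, 21.1 and 4.6 CPM with sorafenib. It rose in all 4 lines, most in KU-cHCC-002 (3.60 ± 0.46, adjusted p = 0.00138). SELENOM, a selenoprotein of the endoplasmic reticulum, went from 1.14 to 2.1 CPM to 9.77 to 14 CPM (2.89 ± 0.28, adjusted p = 0.000458).

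Several of these genes encode cytoskeletal, adhesion and signalling proteins, and the lines started from different levels. PARVB, an actin-binding partner of integrin-linked kinase at focal adhesions, stood at 10.6, 0.929, 1.23 and 2.02 CPM with DMSO and 54, 10.9, 6.73 and 13.7 CPM with sorafenib. Its level in KU-cHCC-001 with DMSO was within the treated range of the other lines, so the groups overlapped although it rose in every line (2.73 ± 0.24, adjusted p = 0.000376). CHN1, a GTPase-activating protein for RAC, stood at 8.92, 0.29, 10.3 and 6.7 CPM with DMSO and 72.6, 2.59, 38.4 and 83 CPM with sorafenib. It also rose in every line, and its groups overlapped through the low treated level of KU-cHCC-002 (2.88 ± 0.29, adjusted p = 0.000581). LARP6, which binds collagen messenger RNAs, was high only in KU-cHCC-001 at 8.65 CPM and was at most 0.406 CPM in the other vehicle libraries, and it rose from each of these levels (3.15 ± 0.42, adjusted p = 0.00154). LCP1, the actin-bundling plastin of blood cells, went from 2.56 to 58.5 CPM in KU-cHCC-005 and stayed at or below 2.9 CPM in the other 3 lines (3.09 ± 0.67, adjusted p = 0.00952). Increases were also called for PIK3R5, a regulatory subunit of PI3 kinase gamma (3.08 ± 0.36, adjusted p = 0.000944), for the protein phosphatase 1 subunit PPP1R16B (2.78 ± 0.51, adjusted p = 0.00493), for the anion exchanger SLC4A3 (2.71 ± 0.53, adjusted p = 0.00627) and for the scavenger receptor OLR1 (4.42 ± 0.26, adjusted p = 0.000135), whose level with sorafenib ran from 0.623 to 412 CPM. The rest of the 15 largest increases were LOXL4, GEM and DUSP2, with log2 fold changes of 3.31, 3.0 and 2.90. Without KU-cHCC-001 the values were 3.82 for LARP6, 3.55 for PPP1R16B, 3.31 for SLC4A3 and 3.71 for DUSP2, and without KU-cHCC-005 that of DUSP2 was 2.14.

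The largest decreases were mostly of transcripts that only some of the lines expressed. PLEKHS1, a pleckstrin homology domain protein, stood at 0.108, 116, 133 and 1.14 CPM with DMSO and 0.044, 3.26, 1.38 and 0 CPM with sorafenib. The fall was seen in KU-cHCC-002 and KU-cHCC-004; in the other lines it was at or below 1.14 CPM under either treatment (-5.74 ± 0.42, adjusted p = 0.000253; -6.40 without KU-cHCC-002 and -5.07 without KU-cHCC-004). RIPPLY1, a repressor known from somite formation, was expressed at 342 CPM in KU-cHCC-001 with DMSO and at 10.5 CPM with sorafenib, and at no more than 2.79 CPM elsewhere (-4.78 ± 0.50, adjusted p = 0.000674). GJB1, the gap junction protein connexin 32 of hepatocytes, fell from 40.9 to 2.92 CPM in KU-cHCC-002 and was at or below 2.94 CPM in the others (-3.87 ± 0.34, adjusted p = 0.000376). MAB21L4 stood at 0.0538, 32.6, 59.5 and 15.4 CPM with DMSO and 0.044, 4.46, 5.1 and 1.35 CPM with sorafenib; it fell in the 3 lines that expressed it (-3.24 ± 0.26, adjusted p = 0.000284). GRAMD1B, which carries cholesterol from the plasma membrane to the endoplasmic reticulum, fell from 2.12 to 35.2 CPM to 0.051 to 4.53 CPM (-3.17 ± 0.37, adjusted p = 0.00103). CLDN2, a pore-forming claudin, was expressed in all 4 lines at 81.1, 32.8, 21.9 and 40.1 CPM with DMSO and 1.8, 3.16, 0.815 and 1.05 CPM with sorafenib. Its treated libraries all lay below its vehicle libraries (-4.67 ± 0.36, adjusted p = 0.000276).

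Interferon-stimulated genes were also among these decreases, and their vehicle levels were highest in KU-cHCC-004. The antiviral enzyme RSAD2 stood at 0.161, 0.813, 288 and 36 CPM with DMSO and 0.132, 0.144, 9.94 and 2.65 CPM with sorafenib (-4.10 ± 0.44, adjusted p = 0.000703). IFI44L stood at 1.34, 1.74, 108 and 26.2 CPM with DMSO and 1.32, 0.479, 2.29 and 1.3 CPM with sorafenib (-3.39 ± 0.87, adjusted p = 0.018). The high values were those of KU-cHCC-004 and KU-cHCC-005 with DMSO, and both genes were at or below 1.34 CPM in KU-cHCC-001 under either treatment. Without KU-cHCC-004 the call of IFI44L was lost (log2 fold change -2.21, adjusted p = 0.0967), and likewise without KU-cHCC-005 (-2.86, adjusted p = 0.1), whereas without KU-cHCC-001 it was -4.54. RSAD2 kept its call without KU-cHCC-004 at -3.10. ISG15, a ubiquitin-like protein (-4.35 ± 1.15, adjusted p = 0.036), and the GTPase MX1 (-3.98 ± 1.08, adjusted p = 0.0392) kept their calls without KU-cHCC-004 at -2.87 and -2.86, and without KU-cHCC-002 at -5.12 and -4.56. Without KU-cHCC-001 they were -5.05 and -5.05 and lost the call (adjusted p = 0.114 and 0.0944), as they did without KU-cHCC-005 (adjusted p = 0.137 and 0.126). APOL5 (-3.69 ± 0.87, adjusted p = 0.0133) lost its call without KU-cHCC-001, 002 or 004 (adjusted p = 0.0852, 0.0509 and 0.0685). The other genes among the 15 largest decreases were HES4 (-3.45; -4.07 without KU-cHCC-001), LRG1 (-3.39), EGR1 (-3.34) and FAM25A (-3.28).

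**Figure D2:**
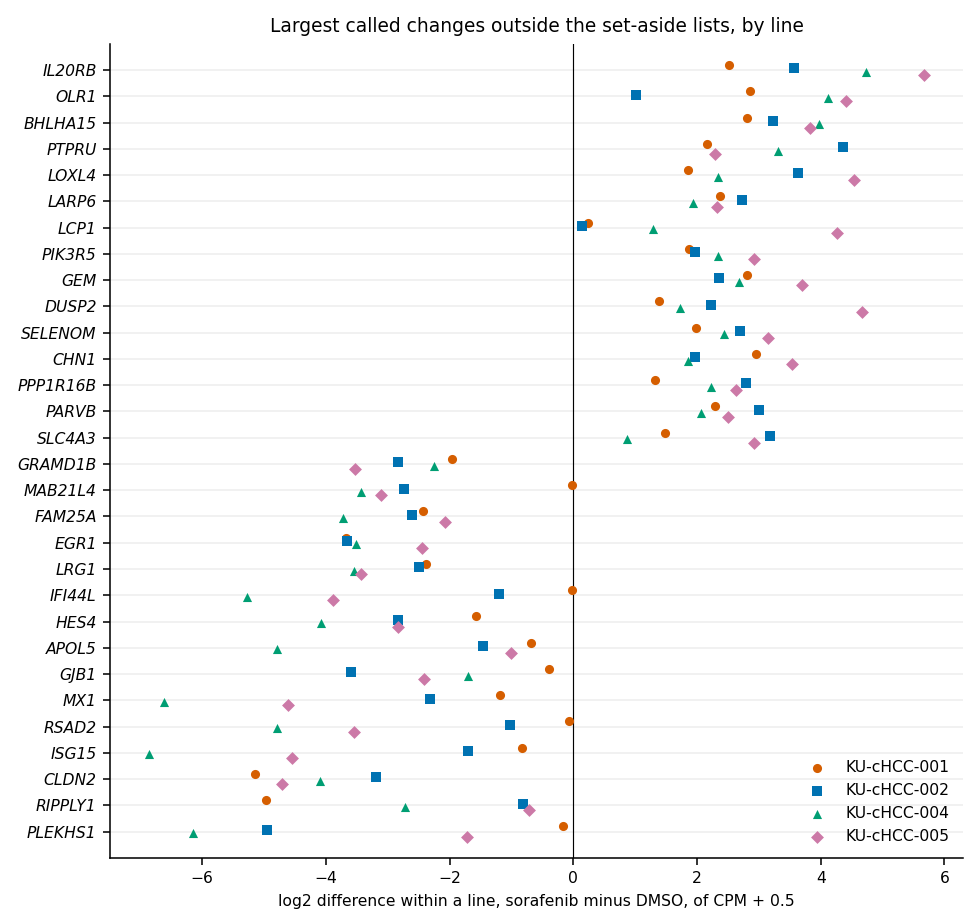
The 15 largest increases and 15 largest decreases among called genes that lie outside the set-aside lists and moved the same way in 4 of 4 lines; each marker is the log2 difference of 1 line, sorafenib minus DMSO, of CPM + 0.5. By this choice of genes, all 4 lines of a gene lie on the same side of 0. LCP1 moved mainly in KU-cHCC-005, RIPPLY1 most in KU-cHCC-001, and ISG15 and MX1 most in KU-cHCC-004.

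Outside the set-aside lists, the 5 genes with the most counts among those that fell were ACTG1, 3 keratins and CLU. ACTG1, cytoplasmic gamma actin, stood at 3866, 7132, 9716 and 7698 CPM with DMSO and 2512, 3108, 4711 and 4852 CPM with sorafenib. The paired keratins of simple epithelium, KRT8 and KRT18, stood at 1676, 9913, 7944 and 8023 CPM with DMSO and 1103, 4857, 4599 and 4179.6 CPM with sorafenib for KRT8 and at 377, 7432, 4482 and 7398 CPM with DMSO and 271, 3249, 2927 and 4162 CPM with sorafenib for KRT18. All 3 fell in each line, and their groups overlapped because KU-cHCC-001 started lower (log2 fold changes -0.88 ± 0.15, -0.84 ± 0.13 and -0.78 ± 0.15; adjusted p = 0.00344, 0.00274 and 0.00564). The bile duct keratin KRT19 had a deeper log2 fold change over all lines (-1.26 ± 0.17, adjusted p = 0.00139). It fell from 2601 to 4919.6 CPM in the 3 lines that expressed it to 1305 to 2549 CPM. By line, its treated level was 0.274, 0.52, 0.4 and 0.502 of the vehicle level, the deepest fall being in KU-cHCC-001, from 22 CPM. In KU-cHCC-002 it fell less than KRT8 and KRT18, whose ratios there were 0.49 and 0.437. The secreted chaperone CLU fell less (-0.57 ± 0.15, adjusted p = 0.0208), and its call was lost without KU-cHCC-001, 002 or 004 (adjusted p = 0.0569, 0.0663 and 0.0802).

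On the rising side, P4HB, the protein disulfide isomerase of the endoplasmic reticulum, stood at 874, 1160.4, 988 and 1146 CPM with DMSO and 1195, 1649, 2010.0 and 2104 CPM with sorafenib. Its groups did not overlap (0.72 ± 0.13, adjusted p = 0.00473). PABPC1, the cytoplasmic poly(A)-binding protein, went from 829.5 to 1357 CPM to 1296 to 2339.5 CPM (0.64 ± 0.11, adjusted p = 0.0044). The chromatin protein HMGA1 (0.71 ± 0.17, adjusted p = 0.0123) lost its call without KU-cHCC-004 (adjusted p = 0.0594). VIM (0.45 ± 0.15, adjusted p = 0.0476) and ANXA1 (0.47 ± 0.16, adjusted p = 0.045) were barely past the threshold and lost it without any one of KU-cHCC-002, 004 or 005 (adjusted p = 0.126 to 0.169 for VIM and 0.131 to 0.188 for ANXA1). In KU-cHCC-001 the VIM level was 6907 CPM under the vehicle and 6890.2 CPM under treatment. In bulk RNA, a change in the share of cells that express a transcript and a change in its level per cell cannot be told apart.

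Of 9 receptor tyrosine kinases that sorafenib is known to inhibit, 4 were expressed highly enough to test. The DMSO levels were 21.6 to 161 CPM for FGFR1, 34.7 to 60.8 CPM for FLT1, 6.18 to 14.9 CPM for FLT4 and 2.18 to 62.5 CPM for PDGFRA. Their log2 fold changes were -0.07 ± 0.11, -0.44 ± 0.17, 0.42 ± 0.28 and 0.69 ± 0.45. Over all lines edgeR, DESeq2 and limma-voom each called 0 of the 4, and FLT1 alone had an unadjusted p under 0.05 in edgeR. Without KU-cHCC-001, edgeR called 1 higher and 1 lower. By line, the treated level of PDGFRA was 0.47, 4.11, 1.7 and 2.52 times the vehicle level. It was thus lower in KU-cHCC-001, where its vehicle level was highest, and higher in the others. For FLT4 these ratios were 2.88, 0.95, 0.92 and 1.33. The differences between lines had no test. Downstream of the receptors, 7 of 18 tested members of the RAS, RAF, MEK and ERK list rose (4 to 11 with a line left out), at a median of 0.36 against -0.02 for all genes. RASA1, a GTPase-activating protein that switches RAS off, went from 71.8 to 164 to 131 to 285 CPM (0.83 ± 0.12, adjusted p = 0.00202). The ERK kinase MAPK3 (0.76), the RAS activator SOS1 (0.59), the RAS inhibitor NF1 (0.64) and the RAF kinase ARAF (0.35) rose too. Without KU-cHCC-002, SOS1 and ARAF did not pass (adjusted p = 0.0807 and 0.106), nor did ARAF without KU-cHCC-004 or 005 (adjusted p = 0.0907 and 0.0761). MAP2K1 (0.42 ± 0.14, adjusted p = 0.052) and BRAF (0.16 ± 0.18, adjusted p = 0.514) did not pass.

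Feedback inhibitors of the cascade had shares near the background: 4 of 17 rose (2 to 7) and 3 fell (1 to 4). The phosphatase DUSP8 rose from 17.5 to 27.6 to 37.9 to 61 CPM (1.16 ± 0.16, adjusted p = 0.00143), while ERRFI1, a brake on the EGF receptor, fell from 135 to 271 to 74.2 to 174 CPM (-0.61 ± 0.12, adjusted p = 0.00698). In the branch that leads to JNK and p38, the kinase MAP3K7 rose (0.61 ± 0.11, adjusted p = 0.0039) and MAP3K5, which responds to oxidants, fell (-0.99 ± 0.18, adjusted p = 0.00468).

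The adaptor GAB2 rose in every line. GAB2 docks PI3 kinase and the phosphatase SHP2 to activated receptors. It stood at 58.1, 82.5, 30.4 and 36.4 CPM with DMSO and 219, 309, 166 and 193 CPM with sorafenib. Treated libraries stood at 3.75 to 5.46 times the vehicle library of their own line, and no treated library overlapped the vehicle range (2.17 ± 0.14, adjusted p = 0.000139). Among 55 tested genes of PI3 kinase, mTOR and insulin signalling, 12 rose (5 to 16) and 8 fell (5 to 10), shares near the background.

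Of 26 tested receptor tyrosine kinases outside the drug's named targets, 5 rose (2 to 5) and 6 fell (3 to 9), shares near the background. EPHA2, an ephrin receptor, stood at 264, 341, 342 and 356 CPM with DMSO and 581, 577, 827 and 761 CPM with sorafenib. Its groups were separate (1.07 ± 0.12, adjusted p = 0.000743). The insulin receptor INSR rose from 1.96 to 19.4 to 3.31 to 37.9 CPM (0.94 ± 0.18, adjusted p = 0.00618), and so did the WNT co-receptor RYK (0.60 ± 0.12, adjusted p = 0.007), both losing the call without KU-cHCC-002 (adjusted p = 0.056 and 0.0509). IGF1R fell from 212 to 339 to 148 to 187 CPM (-0.54 ± 0.13, adjusted p = 0.0118); its call was lost without KU-cHCC-002 (adjusted p = 0.0561) or without KU-cHCC-005 (adjusted p = 0.0588). FGFR2 fell in each line, from 107 to 51.6 CPM in KU-cHCC-001 and from 4.08 to 9.11 CPM down to 1.73 to 3.98 CPM in the others (-1.09 ± 0.15, adjusted p = 0.00148).

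Growth factor genes were called higher more often than lower over all 4 lines. Of 28 tested genes of the EGF, FGF, PDGF and VEGF families and related factors, 7 rose (5 to 9) and 1, CCN2, fell (1 to 4, the higher count without KU-cHCC-001). Ligands of the EGF receptor family were among the genes that rose. HBEGF stood at 20.6, 14.7, 14.9 and 24.1 CPM with DMSO and 33.8, 40.8, 55.5 and 83.9 CPM with sorafenib. All treated libraries lay above the vehicle range (1.47 ± 0.20, adjusted p = 0.00171). Amphiregulin (AREG) stood at 2.9, 71.9, 51.9 and 132 CPM with DMSO and 3.92, 336, 208 and 330.3 CPM with sorafenib. It was scarcely expressed in KU-cHCC-001, so the groups overlapped, and its treated level was 2.50 to 4.67 times the vehicle level in the other 3 lines (1.60 ± 0.25, adjusted p = 0.00297). NRG1, a ligand of ERBB3 and ERBB4, went from 13.3 to 45.7 to 22.7 to 64.4 CPM (0.71 ± 0.13, adjusted p = 0.00442). The matricellular factor CCN2 fell in every line (-0.95 ± 0.17, adjusted p = 0.00458).

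Early response factors moved apart from each other. In the list of AP-1, EGR, MYC and related early factors, 15 of 43 tested members fell (12 to 15) and 7 rose (5 to 9). NR4A1, an orphan nuclear receptor induced early by many stimuli, stood at 15.7, 51.5, 13.5 and 26.7 CPM with DMSO and 1.41, 11.1, 2.8 and 3.05 CPM with sorafenib. No treated library reached the lowest vehicle library (-2.74 ± 0.25, adjusted p = 0.000421). IER2 (-1.26 ± 0.15, adjusted p = 0.000904) and the AP-1 subunit JUNB (-1.56 ± 0.19, adjusted p = 0.00114) fell without overlap as well, JUNB from 101 to 278 to 38.3 to 60.9 CPM. The rising members included the small MAF proteins, which pair with NRF2 and other leucine zipper factors: MAFG went from 11.1 to 16.7 to 34.8 to 48 CPM (1.56 ± 0.18, adjusted p = 0.000964) and MAFF from 1.56 to 6.09 to 11.5 to 14.5 CPM (1.75 ± 0.29, adjusted p = 0.00351). The AP-1 subunit FOSL2 (0.88 ± 0.11, adjusted p = 0.00103) and the MYC antagonist MXI1 (0.90 ± 0.12, adjusted p = 0.0014) rose too.

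Among factors that set cell lineage, more fell than rose. Of 46 tested SOX, FOX, GATA, HNF and ETS genes, 18 fell (11 to 19) and 5 rose (2 to 4), at a median of -0.27. ERF, an ETS repressor that ERK regulates, fell from 29.4 to 48.5 to 9.6 to 24.6 CPM (-1.38 ± 0.17, adjusted p = 0.00103). FOXQ1 (-1.32 ± 0.13, adjusted p = 0.000465) and CEBPD, a liver acute-phase factor (-1.54 ± 0.15, adjusted p = 0.000492), fell in each line from levels that were lowest in KU-cHCC-001. HNF4A, the nuclear receptor of hepatocyte identity, fell from 5.7 to 77 to 2.68 to 49.9 CPM (-0.79 ± 0.14, adjusted p = 0.00383). Among the smaller group of KLF and SP factors, KLF4 rose from 7.74 to 37.6 to 33.8 to 88.9 CPM (1.80 ± 0.29, adjusted p = 0.00297). FOXJ2 rose as well (0.77 ± 0.13, adjusted p = 0.00386).

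Genes of the circadian clock had a larger share of rises than all genes: 9 of 21 tested members were higher (4 to 10) and 2 lower (1 to 2), at a median of 0.52. NFIL3, a repressor in the output of the clock, stood at 55.1, 57.3, 82.8 and 49.2 CPM with DMSO and 114, 136, 188 and 116 CPM with sorafenib. The treated level was 2.07 to 2.37 times the vehicle level, with no overlap (1.18 ± 0.10, adjusted p = 0.000378). CLOCK itself (0.73 ± 0.14, adjusted p = 0.00498) and the haem-binding repressors NR1D1 (0.90 ± 0.19, adjusted p = 0.00799) and NR1D2 (0.71 ± 0.14, adjusted p = 0.00664) rose in each line with overlapping groups. BHLHE41 (1.40), TEF (1.25), ARNTL2 (0.84), CRY1 (0.81) and CSNK1E (0.42) completed the rising members, and each of these 5 lost its call without KU-cHCC-002 (adjusted p = 0.0507 to 0.134). TEF, CRY1 and CSNK1E also lost it without KU-cHCC-004 (adjusted p = 0.0611 to 0.114), and all but BHLHE41 without KU-cHCC-005 (adjusted p = 0.0548 to 0.0919). NPAS2, a paralogue of CLOCK, fell (-1.51 ± 0.31, adjusted p = 0.00788), and so did TIMELESS (-0.72), the latter not without KU-cHCC-002 or 005 (adjusted p = 0.107 and 0.102). By line, the log2 difference of TIMELESS was -0.21, -0.97, -0.41 and -1.26. The medians of the set-aside cell cycle genes were -0.27, -1.02, -0.41 and -1.65. Whether TIMELESS moved with the clock or with the cell cycle was not tested. The cultures were harvested at a single time, so these are levels at 24 h.

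In the TGF-beta and BMP families 9 of 45 tested genes rose (6 to 10), which is close to the background, and 4 fell (3 to 7). INHBA, the subunit of activin A, stood at 22.2, 21, 27.4 and 16 CPM with DMSO and 93, 83.2, 54.8 and 103 CPM with sorafenib. Each treated library lay above the vehicle range, with the smallest rise in KU-cHCC-004 (1.94 ± 0.25, adjusted p = 0.00131). The BMP antagonist NOG went from 0 to 3.44 to 1.05 to 9.28 CPM (2.53 ± 0.46, adjusted p = 0.00478; 3.13 without KU-cHCC-001). SMURF1, a ubiquitin ligase for SMAD proteins and their receptors, rose with little spread (0.67 ± 0.11, adjusted p = 0.00281), and SMAD5, which carries BMP signals, rose by a like amount (0.71 ± 0.13, adjusted p = 0.00449). The type II receptor TGFBR2 fell from 178 to 361 to 103 to 163 CPM (-0.87 ± 0.16, adjusted p = 0.0051). ID2 and ID1, both targets of BMP signals, fell: ID2 stood at 144, 36.7, 91.6 and 95.6 CPM with DMSO and 8.36, 12.9, 20.5 and 20.9 CPM with sorafenib (-2.46 ± 0.37, adjusted p = 0.00245). ID1 stood at 287, 22.9, 33.2 and 38.2 CPM with DMSO and 15.5, 11.4, 19.3 and 9.85 CPM with sorafenib, the highest vehicle value being that of KU-cHCC-001 (-1.94 ± 0.52, adjusted p = 0.0215; -1.23 without that line); without KU-cHCC-005 its call was lost (adjusted p = 0.079).

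Of 21 tested Notch genes 5 were higher (3 to 5) and 6 lower (4 to 10). The ligand JAG1 stood at 49.6, 28, 28.3 and 18.2 CPM with DMSO and 69.2, 82.6, 94.5 and 50.1 CPM with sorafenib and was separate between groups (1.31 ± 0.21, adjusted p = 0.00289). The receptor NOTCH1 rose (0.60 ± 0.11, adjusted p = 0.00518), while the target and feedback gene NRARP (-1.49 ± 0.31, adjusted p = 0.00783) and LFNG, an enzyme that modifies the receptor (-1.60 ± 0.24, adjusted p = 0.00248), fell. In the Wnt list 11 of 49 members were called lower (7 to 10) and 7 higher (4 to 11), a balance that became 7 lower and 10 higher with total-count scaling. AXIN2, a transcriptional target of beta-catenin, fell from 7.63 to 14.9 to 1.8 to 5.75 CPM (-1.53 ± 0.21, adjusted p = 0.00158). TCF7L2, a partner of beta-catenin on DNA, fell too (-0.89 ± 0.16, adjusted p = 0.00462). The Dishevelled proteins moved in opposite directions, DVL3 up (0.71 ± 0.13, adjusted p = 0.00445) and DVL2 down (-1.27 ± 0.20, adjusted p = 0.00258). CSNK1A1, a kinase that primes beta-catenin for degradation, stood at 358, 249.8, 322 and 238 CPM with DMSO and 553, 537, 766 and 462 CPM with sorafenib and rose in all lines without overlap (0.98 ± 0.13, adjusted p = 0.00127).

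RNA-binding proteins were called in both directions. Among SR proteins and splicing kinases 17 of 43 tested members fell (13 to 18) and 7 rose (5 to 7), at a median of -0.26. Of the hnRNP and decay factors 9 of 32 fell (7 to 10) and 9 rose (6 to 10). RBM3, a protein induced by mild cold, stood at 87.2, 113, 121 and 162 CPM with DMSO and 29, 32.9, 32.1 and 49.5 CPM with sorafenib. The treated level was 0.265 to 0.333 of the vehicle level by line and the groups were separate (-1.75 ± 0.11, adjusted p = 0.000139). HNRNPA2B1 stood at 1080.1, 1331, 1054 and 1256 CPM with DMSO and 499, 414, 327 and 418 CPM with sorafenib. KU-cHCC-001 kept the highest treated level, still below all vehicle libraries (-1.52 ± 0.13, adjusted p = 0.000372). HNRNPA1 (-1.35 ± 0.14, adjusted p = 0.000591) and the splicing factor SRSF6 (-1.20 ± 0.11, adjusted p = 0.000447) fell without overlap too; HNRNPA1 has many near-identical copies, among which the counting could have split reads.

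Rising genes of the same list had varied roles. MBNL2, a splicing regulator of the muscleblind family, stood at 72.6, 24.6, 56.8 and 34 CPM with DMSO and 253, 77.5, 137 and 87 CPM with sorafenib, and every treated library lay above the vehicle range (1.52 ± 0.13, adjusted p = 0.000341). CLK3, a kinase that phosphorylates SR proteins, went from 20.6 to 29.1 to 52.7 to 97.2 CPM (1.41 ± 0.15, adjusted p = 0.000703). SMG1, the kinase of nonsense-mediated decay (0.86 ± 0.11, adjusted p = 0.00142), and BTG3, an antiproliferative protein (1.47 ± 0.20, adjusted p = 0.0017), rose in each line.

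Chromatin enzymes were also unevenly placed. Of 60 tested genes of histone acetylation and nucleosome remodelling, 18 fell (11 to 18) and 6 rose (1 to 6). CHD4, the motor of the NuRD complex, went from 343 to 453 to 222 to 275 CPM (-0.76 ± 0.10, adjusted p = 0.00162) and ARID1A, a subunit of BAF remodellers, from 129.95 to 164 to 68.9 to 106 CPM (-0.79 ± 0.11, adjusted p = 0.00143). HMGN2, a nucleosome-binding protein with many processed copies in mammalian genomes, fell from 263 to 456 to 154 to 166 CPM (-1.24 ± 0.14, adjusted p = 0.000791). The heterochromatin protein CBX1 fell without overlap as well (-1.07 ± 0.13, adjusted p = 0.00103). Histone methyltransferases and demethylases were near the background, with 12 of 60 higher (4 to 13) and 10 lower (2 to 13). KDM6B, which removes methyl groups from lysine 27 of histone H3, rose from 42.4 to 73.9 to 98.2 to 156 CPM (1.10 ± 0.12, adjusted p = 0.000764), and PRDM4 rose without overlap (0.85 ± 0.11, adjusted p = 0.00133).

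**Figure D3:**
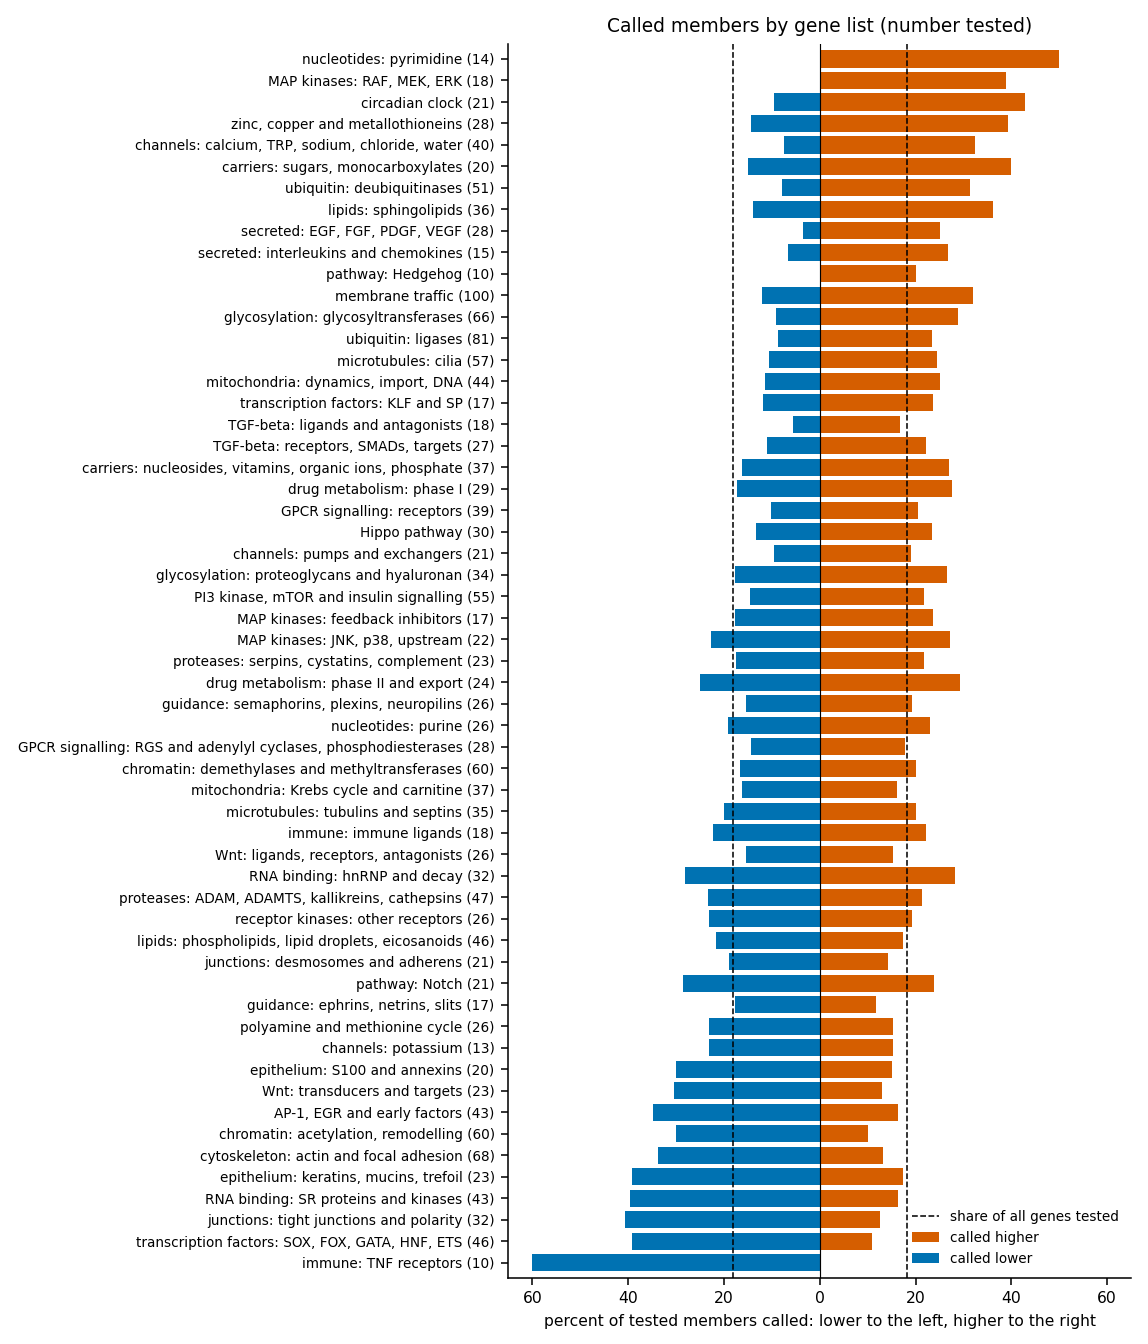
Percent of tested members called higher (orange, to the right) and called lower (blue, to the left) in lists with 10 or more tested members, the set-aside lists and cell type markers not being plotted; the number tested is in parentheses and the dashed lines mark the 18.3% and 18.2% of all genes. Pyrimidine genes, the clock and the carriers of sugars and monocarboxylates extend furthest to the right, and TNF receptors, tight junctions and SR proteins furthest to the left.

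The actin skeleton and epithelial junctions were on the falling side. Of 68 tested actin and focal adhesion genes 23 fell (12 to 24 with a line left out, 13 with total-count scaling) and 9 rose (5 to 10). LAD1, an epithelial anchoring filament protein that binds actin, went from 236 to 742 to 139 to 356 CPM (-1.0 ± 0.12, adjusted p = 0.00111). FLNC, a filamin that crosslinks actin, rose in every line; with DMSO the 3 other lines had at most 2.4 CPM and KU-cHCC-001 had 108 CPM (1.15 ± 0.14, adjusted p = 0.00103). The small GTPase RHOB fell from 49.9 to 169.9 to 21.6 to 32.8 CPM (-1.76 ± 0.23, adjusted p = 0.0014). ARHGEF2, a microtubule-bound activator of RHOA, stood at 69.7, 48.9, 67.2 and 56.3 CPM with DMSO and 165, 130.41, 171 and 136 CPM with sorafenib and rose without overlap (1.32 ± 0.10, adjusted p = 0.000276). RND3, which opposes RHOA, rose too (0.94 ± 0.12, adjusted p = 0.00129).

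Tight junction and polarity genes had 13 of 32 members lower (9 to 13) and 4 higher (1 to 4). TJP3 went from 47.1 to 152 to 26.5 to 71.9 CPM (-1.16 ± 0.13, adjusted p = 0.000764). CLDN4 fell in the 3 lines that expressed it, from 333 to 794 CPM down to 211 to 284 CPM (-1.08 ± 0.23, adjusted p = 0.009), and its call was lost without KU-cHCC-002 (adjusted p = 0.0624). DLG1, a scaffold of cell polarity, rose from 98 to 146 to 162 to 288 CPM (0.83 ± 0.13, adjusted p = 0.00278). Desmosomes and adherens junctions held rises and falls at once: the desmosomal cadherins DSG3 (1.25 ± 0.17, adjusted p = 0.00143) and DSC3 (0.69 ± 0.11, adjusted p = 0.00287) rose, whereas the plaque protein PKP3 (-1.24 ± 0.11, adjusted p = 0.000403) and cadherin 6, CDH6 (-1.26 ± 0.13, adjusted p = 0.000582), fell in all 4 lines.

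Keratins, mucins and trefoil factors had 9 of 23 members lower (7 to 8) and 4 higher (2 to 6). The hyaluronan receptor CD44, listed with them, stood at 116, 299, 288 and 367 CPM with DMSO and 257, 782, 668 and 743 CPM with sorafenib. It rose to 2.02 to 2.62 times the vehicle level, and the groups overlapped through KU-cHCC-001, which had the lowest levels (1.19 ± 0.11, adjusted p = 0.000415). S100A4, a calcium-binding protein linked to cell motility, stood at 326, 122, 330.1 and 95.9 CPM with DMSO and 75.3, 29.5, 54.8 and 20.6 CPM with sorafenib. The treated level was 0.166 to 0.242 of the vehicle level, and the groups were separate (-2.24 ± 0.13, adjusted p = 0.000111). ANXA13, an annexin of epithelial membranes, fell from 29.4 to 248 to 8.77 to 39.2 CPM (-2.23 ± 0.18, adjusted p = 0.000331) and S100A10 from 465 to 1071 to 283 to 671 CPM (-0.77 ± 0.10, adjusted p = 0.00151), while ANXA5 rose (0.90 ± 0.12, adjusted p = 0.00141). Osteopontin (SPP1), a secreted protein of bile duct cells, stood at 549, 40.6, 27.8 and 6.65 CPM with DMSO and 30.3, 1.97, 8.51 and 1.7 CPM with sorafenib; it fell in all lines, most in KU-cHCC-001 and KU-cHCC-002 (-3.13 ± 0.48, adjusted p = 0.00252). The beta-tubulins TUBB4B and TUBB fell as well, TUBB4B from 522 to 1092 to 185 to 416 CPM (-1.5 ± 0.19, adjusted p = 0.00126) and TUBB (-1.05 ± 0.18, adjusted p = 0.00432), within a group of tubulins and septins in which 7 of 35 rose (6 to 8) and 7 fell (3 to 7).

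Membrane traffic leaned to increases. Of 100 tested members 32 rose (22 to 40) and 12 fell (6 to 16), at a median of 0.23. SNX10, an endosomal sorting nexin, stood at 27.1, 18.2, 18.3 and 51.1 CPM with DMSO and 101, 103, 134 and 159 CPM with sorafenib. The treated level was 3.11 to 7.33 times the vehicle level by line, and the groups were separate (2.22 ± 0.21, adjusted p = 0.000458). SEC24A and SEC23B form the inner coat of vesicles that leave the endoplasmic reticulum. SEC24A went from 24.6 to 46.6 to 69.6 to 122 CPM (1.28 ± 0.13, adjusted p = 0.00055) and SEC23B from 81.2 to 99.4 to 176 to 256 CPM (1.15 ± 0.12, adjusted p = 0.000606). The small GTPase RAB31 rose without overlap (1.28 ± 0.13, adjusted p = 0.000589). VAMP8, a fusion protein of endosomes and lysosomes, fell in each line (-0.74 ± 0.11, adjusted p = 0.00234).

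The ubiquitin system also had more genes called higher than lower. Of 81 tested ligases 19 rose (11 to 24) and 7 fell (3 to 10), and of 51 deubiquitinases 16 rose (8 to 18) and 4 fell (0 to 6). RNF114 stood at 75.7, 93, 66.7 and 76.7 CPM with DMSO and 147, 203, 150.2 and 152 CPM with sorafenib, and its treated level was 1.95 to 2.25 times the vehicle level (1.06 ± 0.10, adjusted p = 0.000498). RNF13, a ligase in endosomal and lysosomal membranes, rose from 32.4 to 57.4 to 87.6 to 136 CPM (1.18 ± 0.16, adjusted p = 0.00139). The deubiquitinases USP43 (1.10 ± 0.12, adjusted p = 0.000703) and USP31 (1.33 ± 0.17, adjusted p = 0.0013) rose, both from levels that were highest in KU-cHCC-001. RNF187 fell in all 4 lines (-1.58 ± 0.15, adjusted p = 0.000458).

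Enzymes that build sugar chains had a larger share of rises than all genes, with 19 of 66 glycosyltransferases and sugar-nucleotide enzymes higher (13 to 28) and 6 lower (3 to 7). GNPNAT1 and UAP1 both act in the hexosamine pathway that makes UDP-N-acetylglucosamine. GNPNAT1 stood at 50.2, 48, 63.7 and 67.1 CPM with DMSO and 80.6, 100.46, 114 and 146 CPM with sorafenib (0.93 ± 0.12, adjusted p = 0.00124). UAP1 went from 30.7 to 70.9 to 60.2 to 147 CPM (0.89 ± 0.11, adjusted p = 0.0012). CHPF, which extends chondroitin sulfate, rose without overlap (1.13 ± 0.11, adjusted p = 0.000466). HS3ST1, a heparan sulfate sulfotransferase, stood at 126, 33.5, 92.4 and 60.6 CPM with DMSO and 23.6, 18.5, 25 and 15 CPM with sorafenib and fell below all vehicle libraries (-1.80 ± 0.24, adjusted p = 0.00141).

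Transport proteins changed in several classes. Of 40 tested calcium, TRP, sodium, chloride and water channels 13 rose (10 to 16) and 3 fell (1 to 7). ITPR2, a calcium release channel of the endoplasmic reticulum, stood at 111, 29.8, 47 and 47.4 CPM with DMSO and 213, 85.3, 160.4 and 157 CPM with sorafenib; each line rose, and the high vehicle value of KU-cHCC-001 overlapped the treated range (1.49 ± 0.15, adjusted p = 0.000589). CLCN4, a chloride-proton exchanger of endosomes, went from 10.3 to 22.7 to 31.9 to 51.3 CPM (1.46 ± 0.16, adjusted p = 0.000713). ORAI3, a plasma membrane channel of store-operated calcium entry, fell from 28.6 to 46 to 13.5 to 25.5 CPM (-1.07 ± 0.17, adjusted p = 0.00297). Among solute carriers, SLC25A25, a mitochondrial ATP-magnesium carrier (1.17 ± 0.11, adjusted p = 0.000458), the vitamin C carrier SLC23A2 (1.12 ± 0.12, adjusted p = 0.000688) and the thiamine carrier SLC19A2 (1.16 ± 0.16, adjusted p = 0.00153) each rose without overlap. SLC25A33, which carries pyrimidine nucleotides into mitochondria, rose from 7.1 to 32.4 to 21.9 to 71.4 CPM (1.64 ± 0.16, adjusted p = 0.000536). The urate carrier SLC2A9 fell (-1.51 ± 0.22, adjusted p = 0.00185).

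Zinc and copper handling had 11 of 28 members higher (4 to 13) and 4 lower (2 to 5). SLC39A14, an importer of zinc, iron and manganese, stood at 9.3, 13.5, 23.9 and 21.9 CPM with DMSO and 28, 36.8, 90.7 and 56.6 CPM with sorafenib, and each treated library lay above the vehicle range (1.59 ± 0.14, adjusted p = 0.000395). The importer SLC39A10 rose from 34.9 to 72.1 to 80.5 to 116 CPM (0.91 ± 0.15, adjusted p = 0.00318) and the zinc exporter SLC30A1 from 57.5 to 128 to 105 to 215 CPM (0.65 ± 0.12, adjusted p = 0.00552). The metallothionein MT2A, which binds both metals, fell in every line (-1.01 ± 0.13, adjusted p = 0.00117).

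In nucleotide metabolism the pyrimidine and purine branches differed in their counts, though the difference itself was not tested. Of 14 pyrimidine genes 7 rose (3 to 6), at a median of 0.42. They were CMPK1 (0.57 ± 0.10, adjusted p = 0.00453) and UCK2 (0.76 ± 0.16, adjusted p = 0.00741), kinases of pyrimidine nucleotides and nucleosides, DHODH (0.76) and CAD (0.45) of the synthesis from simple precursors, CTPS2 (0.41), and UPP1 (0.79) and DPYD (0.55) of breakdown. CAD, CTPS2 and DPYD did not pass without KU-cHCC-002, 004 or 005 (adjusted p = 0.0564 to 0.139, where CAD was 0.28 without KU-cHCC-004), and UPP1 did not without KU-cHCC-001, 002 or 005 (adjusted p = 0.0538 to 0.0702). Of 26 purine genes 6 rose (1 to 6) and 5 fell (3 to 5). ADSS1, an adenylosuccinate synthase, fell from 4.19 to 13.4 to 0.704 to 2.5 CPM (-2.44 ± 0.29, adjusted p = 0.00103), and the phosphorylase PNP fell in each line (-0.83 ± 0.12, adjusted p = 0.00201). The ornithine decarboxylase antizymes OAZ1 and OAZ2, which restrain polyamine synthesis, fell without overlap, OAZ1 from 446 to 615 to 234 to 283 CPM (-1.04 ± 0.13, adjusted p = 0.00117) and OAZ2 from 52.3 to 79.4 to 29.4 to 33.7 CPM (-1.08 ± 0.13, adjusted p = 0.000998). Spermidine synthase (SRM) rose from 41.2 to 107 to 117 to 200.1 CPM (0.98 ± 0.16, adjusted p = 0.00286).

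Among lipid enzymes outside the sterol pathway, those of phospholipids, lipid droplets and eicosanoids were near the background, with 8 of 46 higher (3 to 11) and 10 lower (5 to 12). Of 36 tested sphingolipid genes 13 rose (7 to 13) and 5 fell (2 to 5). SGPL1, the lyase of sphingosine 1-phosphate, rose from 24.4 to 45.2 to 45.6 to 76.6 CPM (0.82 ± 0.12, adjusted p = 0.00207), whereas DEGS2, which makes phytoceramide (-1.22 ± 0.12, adjusted p = 0.000462), and SPTLC3, a subunit of the first enzyme of the pathway (-1.15 ± 0.16, adjusted p = 0.00168), fell without overlap. LPCAT3 inserts polyunsaturated fatty acids into membrane phospholipids. It stood at 97.3, 84.3, 76.6 and 93.9 CPM with DMSO and 33.4, 20.9, 24.5 and 29.4 CPM with sorafenib. No treated library came near the vehicle range (-1.72 ± 0.13, adjusted p = 0.000247). AGPAT2, which makes phosphatidic acid, rose from 99.8 to 127 to 139 to 339 CPM (1.20 ± 0.18, adjusted p = 0.00225). TBXAS1, thromboxane synthase, went from 1.4 to 5.56 to 9.81 to 25.6 CPM (2.33 ± 0.21, adjusted p = 0.000378), and PTGR1, which reduces prostaglandins and reactive aldehydes, rose in each line (1.08 ± 0.11, adjusted p = 0.000579).

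At the entry to the Krebs cycle, PDK1, the kinase that inhibits pyruvate dehydrogenase, stood at 38.4, 16.8, 22.4 and 16.8 CPM with DMSO and 96.7, 79.3, 72 and 110.4 CPM with sorafenib. Every treated library exceeded the vehicle range (1.99 ± 0.22, adjusted p = 0.000847). Pyruvate carboxylase (PC) rose from 15.2 to 30.7 to 31.4 to 88.6 CPM (1.01 ± 0.18, adjusted p = 0.0044) and citrate synthase (CS) from 269 to 429 to 418 to 589 CPM (0.59 ± 0.10, adjusted p = 0.00367). The cycle enzymes SDHA (-0.66 ± 0.12, adjusted p = 0.00403) and FH (-0.53 ± 0.11, adjusted p = 0.00843) fell in each line, SDHA without overlap. FIS1, a receptor of mitochondrial fission, fell in each line too (-1.03 ± 0.14, adjusted p = 0.00139). For the whole list of Krebs cycle and carnitine genes, 6 of 37 rose (4 to 8) and 6 fell (1 to 4), and with total-count scaling 8 rose and 2 fell.

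Drug-handling genes had 15 of 53 tested members higher (11 to 17) and 11 lower (5 to 12). ABCC5, an exporter of cyclic nucleotides and drug conjugates, stood at 41.7, 12.4, 16.5 and 15.6 CPM with DMSO and 196, 72.2, 103 and 67.1 CPM with sorafenib. The treated level was 4.3 to 6.22 times the vehicle level by line, both levels were highest in KU-cHCC-001, and the groups were separate (2.38 ± 0.13, adjusted p = 0.000111). The sterol sulfotransferase SULT2B1 rose from 0.108 to 11.6 to 0.528 to 33.3 CPM (2.09 ± 0.26, adjusted p = 0.0012). FMO5, a flavin monooxygenase of the liver, stood at 6.67, 9.4, 21 and 16.6 CPM with DMSO and 2.02, 0.671, 1.63 and 2.15 CPM with sorafenib and fell in every line (-3.0 ± 0.36, adjusted p = 0.00113). ALDH1A1, which makes retinoic acid, fell from 265 to 483 to 114 to 244 CPM (-1.12 ± 0.22, adjusted p = 0.00659). DHRS3, which turns retinaldehyde back to retinol, stood at 50.6, 52.2, 92.3 and 40.4 CPM with DMSO and 2.07, 14, 20.2 and 21.1 CPM with sorafenib, the fall being deepest in KU-cHCC-001 (-2.28 ± 0.49, adjusted p = 0.009; -1.67 without that line).

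**Figure D4:**
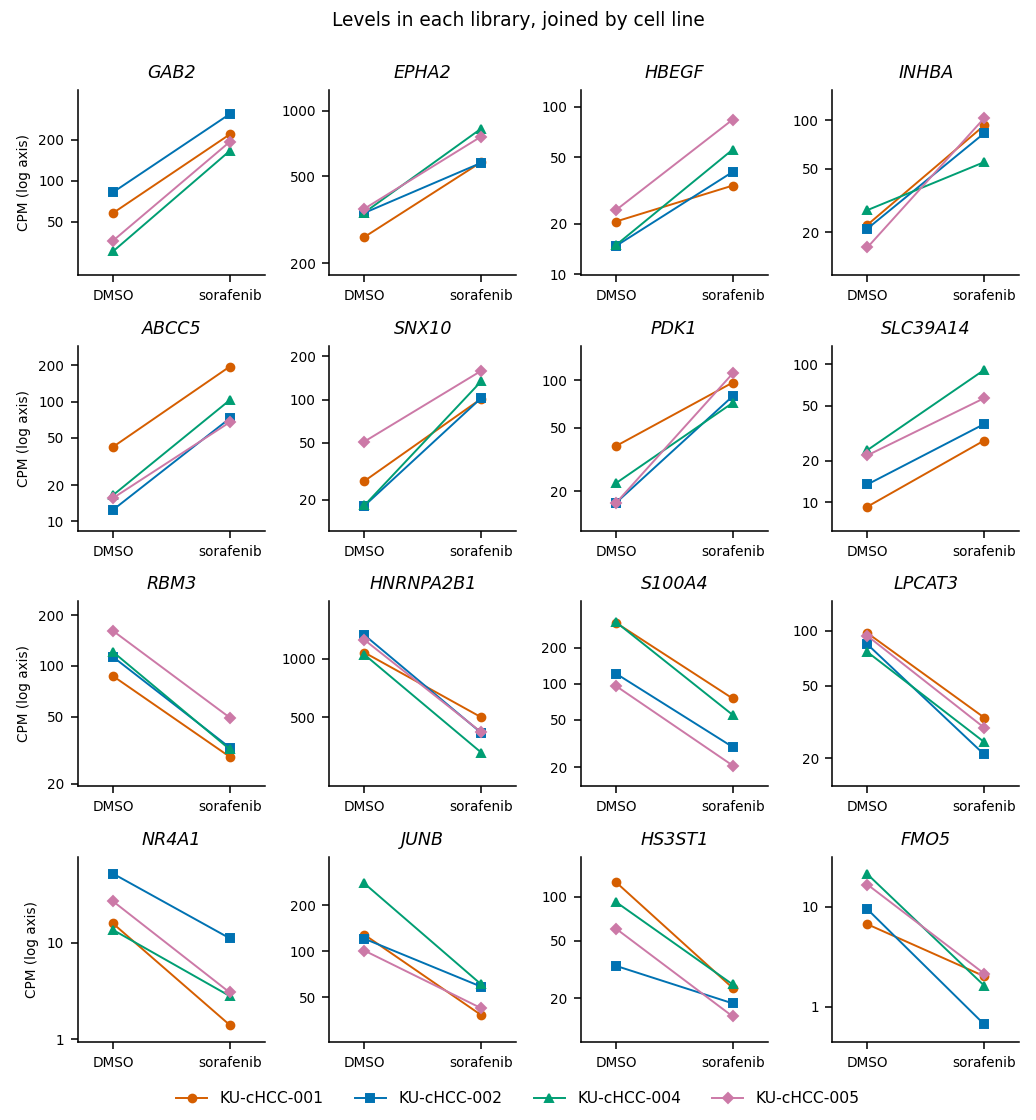
Level in each library (CPM, log axis) of 16 genes described in the text, with the DMSO and sorafenib libraries of a line joined. The genes were picked from called genes with their values known. That all lines move the same way and the 2 groups do not overlap in any of the 16 is therefore no result about the response. Over all genes tested the groups did not overlap in 12.3%. The deepest fall of NR4A1 was in KU-cHCC-001 and the smallest rise of INHBA in KU-cHCC-004.

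Surface molecules that immune cells read were mixed, and TNF receptors were on the falling side. Of 10 tested TNF receptors 6 fell: TNFRSF1A (-0.56 ± 0.12, adjusted p = 0.00733), CD40 (-1.37), TNFRSF14 (-1.20), TNFRSF19 (-0.79), RELT (-0.65) and TNFRSF12A (-0.36). That count was 1 to 5 with a line left out and 3 with total-count scaling, where TNFRSF19, RELT and TNFRSF12A did not pass. Without KU-cHCC-002 or 004 none of CD40, TNFRSF14, TNFRSF19, RELT and TNFRSF12A passed (adjusted p = 0.0547 to 0.196), without KU-cHCC-001 RELT (-0.43) and TNFRSF12A did not (adjusted p = 0.0875 and 0.0772), and without KU-cHCC-005 RELT and TNFRSF19 did not (adjusted p = 0.0939 and 0.183). PVR, a ligand of the lymphocyte receptors CD226 and TIGIT, stood at 43.2, 44.8, 42.2 and 52.8 CPM with DMSO and 121, 97, 153 and 102 CPM with sorafenib. The treated level was 1.94 to 3.61 times the vehicle level, with no overlap (1.35 ± 0.16, adjusted p = 0.000997). VTCN1, the checkpoint ligand B7-H4, fell from 1.13 to 9.95 to 0.0959 to 0.713 CPM (-3.38 ± 0.52, adjusted p = 0.0025; -4.03 without KU-cHCC-001). The galectins diverged: LGALS9 fell from 149.6 to 415 CPM down to 41.9 to 100.04 CPM in the 3 lines other than KU-cHCC-001 (-1.39 ± 0.29, adjusted p = 0.00784). LGALS3 was higher with sorafenib in those lines and not in KU-cHCC-001, at 1722, 501, 974 and 602 CPM with DMSO and 1522, 1471, 2076 and 1855 CPM with sorafenib (1.04 ± 0.28, adjusted p = 0.0215); its call was lost without KU-cHCC-002, 004 or 005 (adjusted p = 0.106, 0.0804 and 0.0942). CD47, which restrains phagocytes, fell (-0.59 ± 0.14, adjusted p = 0.0118), and without KU-cHCC-002 or 004 it did not pass (adjusted p = 0.0735 and 0.059). CD14, the lipopolysaccharide co-receptor, fell (-0.51 ± 0.14, adjusted p = 0.0211) and did not pass without KU-cHCC-004 (adjusted p = 0.102) or 005 (adjusted p = 0.107). Matriptase (ST14), a membrane protease of epithelia, fell from 46.4 to 206 to 24.2 to 72 CPM (-1.35 ± 0.14, adjusted p = 0.000579).

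A small set of genes differed in opposite directions between the lines. Of 9285 genes with a mean of at least 10 CPM, 33 were at least 2-fold higher in 1 line and at least 2-fold lower in another (on CPM + 0.5), and the 8 with the widest range include the interferon-stimulated genes MX2, IFIT3, CMPK2, DDX60 and ISG20. MX2 stood at 0.591, 17.9, 63.2 and 10.9 CPM with DMSO and 3.52, 14.5, 5.66 and 1.15 CPM with sorafenib. It was higher with sorafenib in KU-cHCC-001, from a low level, and lower in the other lines, least so in KU-cHCC-002. IFIT3 stood at 6.02, 8.94, 80.1 and 13.4 CPM with DMSO and 17.6, 4.41, 8.51 and 5.15 CPM with sorafenib, TRANK1 at 12.8, 18.8, 102 and 13.7 CPM with DMSO and 37.5, 9.68, 17.1 and 7.4 CPM with sorafenib and CMPK2 at 1.61, 8.59, 282 and 57.7 CPM with DMSO and 4.4, 4.7, 36.8 and 10.8 CPM with sorafenib, all higher with sorafenib in KU-cHCC-001 and furthest below the vehicle in KU-cHCC-004. DDX60 stood at 0.108, 5.57, 26.8 and 17.3 CPM with DMSO and 0, 24.6, 1.53 and 4.4 CPM with sorafenib, higher with sorafenib in KU-cHCC-002 alone. ISG20 stood at 0.215, 54, 93.8 and 28.8 CPM with DMSO and 13, 25.3, 33.3 and 73.9 CPM with sorafenib, higher with sorafenib in KU-cHCC-001 and KU-cHCC-005. The BMP target ID3 stood at 110.2, 10.2, 17.8 and 20.9 CPM with DMSO and 15.5, 27.9, 16.9 and 20.3 CPM with sorafenib, lower in KU-cHCC-001 and higher in KU-cHCC-002. The histone gene H2AC6 stood at 4.78, 10.2, 17.9 and 19.5 CPM with DMSO and 0.836, 7.05, 20.5 and 57.1 CPM with sorafenib, lower in KU-cHCC-001 and higher in KU-cHCC-005. None of the 8 passed the test over the 4 lines (adjusted p = 0.0923 to 0.869; unadjusted p was under 0.05 for CMPK2 alone, DESeq2 called 0 of them and limma-voom 1), and with 1 library per line and treatment the difference between lines had no test of its own.

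**Figure D5:**
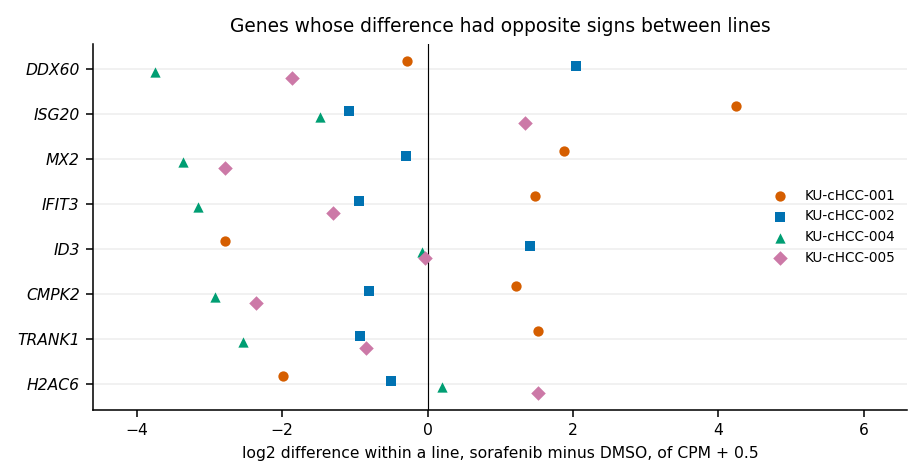
Log2 difference within each line, sorafenib minus DMSO, of CPM + 0.5, for the 8 genes with the widest range among those that were at least 2-fold higher in 1 line and at least 2-fold lower in another. KU-cHCC-001 is at the right for ISG20, MX2, IFIT3, CMPK2 and TRANK1, and KU-cHCC-004 at the left for 6 of the 8 genes.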

How the data were processed

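RNA was measured in 8 libraries, 1 per line with DMSO or sorafenib. Libraries were strand-specific (NEBNext Ultra II Directional) and made from total RNA, per the labels' protocols. The counts are those deposited by the authors: whole, not normalized, 1 value per symbol and library. The submitters' processing notes list TopHat with no version. How reads were counted, whether by strand, and against which genome is not given in the sources used here. Genes that overlap, lie antisense or have near copies therefore have uncertain counts, and no coordinates are given. Of 39954 entries per file, 500 had 1 of 89 repeated symbols and were added up, leaving 39543 symbols, of which 25748 had a count in the 8 libraries. RefSeq's gene table (UU_Cfam_GSD_1.0), used for names alone, held 37336 of the 39543 symbols.

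After filterByExpr (grouped by treatment) and TMM scaling, genes were tested with robust quasi-likelihood fits in edgeR 4.0.16 (R 4.3.3), with treatment and line as terms and 3 residual degrees of freedom. The common dispersion was 0.0401. CPM were computed from the deposited counts with TMM library sizes. The SE is the absolute log2 fold change divided by the square root of F. Differences within a line are of log2(CPM + 0.5) and have no test. The line pairs the libraries by the labels, and the deviations of same-line libraries from the treatment means correlated at 0.754 to 0.888 across genes, against at most 0.135 for other lines. Nothing says that cultures were repeated within a line, so the p-values rest on how far the sorafenib difference varied across the 4 lines. The error of each gene was also moderated toward that of other genes (median prior degrees of freedom 5.51). The libraries held 17055803 to 20312123 counts, and as reads carry no molecular identifiers, counting error alone would understate the error of a value. No 2 libraries agreed within sampling noise. The fits were tested on simulated data.

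The sterol, stress, cell cycle and mitochondrial lists, the other gene lists and the genes described were chosen with earlier results of these data known. Genes were named by a rule: of called genes outside the set-aside lists that moved the same way in 4 of 4 lines, had a symbol other than a LOC number and a mean of at least 5 CPM in one treatment, the 15 largest increases and 15 largest decreases; per list, up to 4 called members per direction by smallest p, or, where none was called, the 2 with the highest mean; the 5 called genes per direction with the most CPM; and the 8 with the widest opposite differences between lines among those with a mean of at least 10 CPM. Further members of the RAS to ERK, clock, pyrimidine and TNF receptor groups were added after their values were seen, and some genes that the rule names are not reported here. Alternatives were no block, RLE factors, total counts, other filters, DESeq2 1.42.0, limma-voom (limma 3.58.1), symbols with several entries or mitochondrial transcripts left out, and each line left out. A planned search of promoters for motifs was not run.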

Additional observations from a re-analysis of the deposited data

Results flagged for a closer look

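For each gene with values in the text except SDHA and FH, the lines were compared in each treatment. The highest and the lowest of the 4 lines were set against the gap that Dixon's 95% critical value allows. In 43 of 428 groups of 4 libraries, or 10.0%, 1 line lay farther out. About 1 in 20 groups would do so if values were independent and normally distributed. These were CPM not on a log scale, of genes chosen with results known, and the same lines recur in both treatments. The 10.0% is therefore no test of an excess over chance. KU-cHCC-001 was the outlying line in 26 of the 43, KU-cHCC-002 in 4, KU-cHCC-004 in 9 and KU-cHCC-005 in 4.

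With DMSO, KU-cHCC-001 had the outlying high level of the receptors FGFR2 (107 CPM) and PDGFRA (62.5 CPM). The same held for the regulators ID1 (287 CPM), ID3 (110 CPM) and RIPPLY1 (342 CPM), for the cytoskeletal genes VIM (6907 CPM), FLNC (108 CPM) and PARVB (10.6 CPM), and for SPP1 (549 CPM), USP43 (213 CPM), CTPS2 (51.7 CPM), ABCC5 (41.7 CPM) and LARP6 (8.65 CPM). EPHA2 was low there (264 CPM). With sorafenib, the outlying high levels of KU-cHCC-001 were those of USP43 (391 CPM), FLNC (218 CPM), PRDM4 (94 CPM), DHODH (93 CPM), PARVB (54 CPM), FGFR2 (51.6 CPM), LARP6 (46.7 CPM), CBX1 (38.1 CPM), RIPPLY1 (10.5 CPM) and FAM25A (8.01 CPM). MAPK3 (47.4 CPM) and ST14 (24.2 CPM) were low. FGFR2, FLNC, LARP6, PARVB, RIPPLY1 and USP43 stood apart in this line under both treatments.

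KU-cHCC-002 had the outlying level of the gap junction gene GJB1 with DMSO (40.9 CPM) and with sorafenib (2.92 CPM), and of NR4A1 (11.1 CPM) and RNF114 (203 CPM) with sorafenib. KU-cHCC-004 with DMSO was high in the interferon-stimulated genes MX1 (973 CPM), ISG15 (506 CPM), RSAD2 (288 CPM) and IFIT3 (80.1 CPM), in TRANK1 (102 CPM) and APOL5 (21.7 CPM), and in JUNB (278 CPM) and HES4 (26.1 CPM). SEC23B was low there (81.2 CPM). With sorafenib, KU-cHCC-005 was high in LOXL4 (92.2 CPM) and LCP1 (58.5 CPM) and low in NOTCH1 (35 CPM) and AXIN2 (1.8 CPM).

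Among the 33 genes with a difference of 2-fold or more upward in 1 line and downward in another, the 8 with the widest range of within-line log2 differences, sorafenib minus DMSO, are given here. The difference between lines was not tested, since each line had 1 library per treatment. The highest differences, all positive, were 4.24 for ISG20, 1.88 for MX2, 1.51 for TRANK1, 1.47 for IFIT3 and 1.21 for CMPK2 in KU-cHCC-001, 2.05 for DDX60 and 1.41 for ID3 in KU-cHCC-002, and 1.53 for H2AC6 in KU-cHCC-005. The lowest were -1.48 for ISG20, -3.37 for MX2, -2.54 for TRANK1, -3.16 for IFIT3, -2.92 for CMPK2, -3.75 for DDX60, -2.79 for ID3 and -1.98 for H2AC6.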

How the results depend on the processing

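Without the replicate block, which ignores that libraries of 1 line are paired, 28 genes were called higher and 43 lower. With a line left out the calls ran from 1269 to 2978 higher and from 1225 to 2856 lower. In the remaining alternatives both counts were within 1.5 times those reported, at 2406 to 3194 higher and 1947 to 2730 lower. Of the 5053 called genes, 0 changed the sign of their log2 fold change in any of the 13 alternatives. Gene by gene, the alternatives were checked for 200 called genes named in the text, which leaves out SDHA and FH. With no filter on low counts, 13 of the 200 lost their call: LOXL4, DUSP2, ISG15, MX1, APOL5, IFI44L, ID1, ID2, LGALS3, LGALS9, DHRS3, SPP1 and TNFRSF12A (adjusted p = 0.0629 to 0.281). With total counts, CD14, RELT, TNFRSF12A and TNFRSF19 lost it (adjusted p = 0.0515 to 0.114), and with mitochondrial transcripts left out TNFRSF12A (adjusted p = 0.0558). DESeq2 gave smaller values for LCP1 (2.45), ISG15 (-3.65) and RSAD2 (-3.15), and limma-voom larger ones for ISG15 (-5.24), MX1 (-5.04) and IFI44L (-4.08). Signs turned only for genes that were not called: ISG20 was -0.28 without the block, -0.076 with limma-voom, and -0.45 to 1.27 with a line left out (negative without KU-cHCC-001 or 005). H2AC6 was 0.71 without the block, 0.39 with limma-voom, and -0.76 to 0.45 with a line left out (positive without KU-cHCC-001 or 002). ID3 was -0.94 to 0.44 with a line left out (positive without KU-cHCC-001), PDGFRA -0.32 without the block, and FGFR1 0.036 with total counts. Their cause was not tested.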
